A study of Mus musculus with 6 samples.

Results

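The genes described here are 32 genes of glycolysis and of the response to low oxygen, read in thyroid glands of mice at postnatal day 15. They were chosen by name as a list of glycolytic enzymes, glucose and lactate carriers, oxygen sensors and targets of hypoxia signalling. Of the 32, 30 had a probe set that the platform annotation assigns to that gene alone, among 18194 genes with such a probe set on the array, and each was read by its probe set of the highest mean signal over the 6 arrays. Gpi1 and Eno1 had no such probe set and have no value here. The 6 arrays hybridised thyroid RNA from 3 samples of mice heterozygous for Slc26a4 and 3 samples of Slc26a4 knockouts. All came from microdissected thyroid, extracted with a Qiagen kit and labelled by NuGEN's Ovation method. The controls thus carry 1 disrupted copy of Slc26a4, which encodes the anion exchanger pendrin, and a wild-type group was not analysed here. The labels do not state strain, sex or how many animals gave each RNA. The p-values therefore reflect only how far these samples scatter, and that scatter may be technical. Arrays are called heterozygous 1, 3 and 5 and knockout 2, 4 and 6 after the numbers their titles carry.

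Glycolysis breaks glucose down to pyruvate, and lactate dehydrogenase turns pyruvate into lactate where oxidation in mitochondria is limited. In low oxygen the prolyl hydroxylases Egln1 and Egln3 act less on the factors HIF-1 alpha and HIF-2 alpha, encoded by Hif1a and Epas1, which then accumulate and bind hypoxia response elements beside glycolytic and other target genes. The thyroid follicle is densely supplied with capillaries, and many glycolytic enzymes exist in isoforms that are typical of muscle, brain or liver.

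The core of a hypoxia response element is ACGTG or GCGTG. Both were searched on both strands in the RefSeq promoter windows of GRCm38.p6, which run from 250 bases before to 50 bases after a gene start, at the outermost start of each gene. A window could hold overlapping matches, since the palindrome CACGTG gives an ACGTG match on each strand. Of the 32 genes, 29 had a window, and Slc2a3, Ndrg1 and Epas1 had none. ACGTG occurred in 17 of the 29 windows (58.6%), against 19.6% of the 27025 genes in the table, and either core in 23 (79.3%), against 43.8%. The shares were also above those of all genes in the lists of related genes described further on, with ACGTG in 14 of 34 windows of other glycolysis genes (41.2%) and 13 of 26 of other hypoxia genes, and either core in 70.6% and 73.1%. The members were listed in part as hypoxia targets, and the windows of all genes were not matched to theirs for base composition. Such a match is a run of letters and was not measured as a site bound by a factor. The 160 bases before the start are shown for 8 genes, with every ACGTG match on either strand in capitals, chosen to set genes with the core beside Pgam2, which lacks it and whose signal varied most. They are Ldha, chr7:46845644-46845803 on the plus strand, Pgk1, chrX:106186940-106187099 on the plus strand, Slc2a1, chr4:119108585-119108744 on the plus strand, Pfkfb3, chr2:11553930-11554089 on the minus strand, Bnip3, chr7:138909507-138909666 on the minus strand, Hif1a, chr12:73907707-73907866 on the plus strand, Pgam1, chr19:41911711-41911870 on the plus strand, and Pgam2, chr11:5803797-5803956 on the minus strand, each written 5′ to 3′ on the gene's strand.
Ldha: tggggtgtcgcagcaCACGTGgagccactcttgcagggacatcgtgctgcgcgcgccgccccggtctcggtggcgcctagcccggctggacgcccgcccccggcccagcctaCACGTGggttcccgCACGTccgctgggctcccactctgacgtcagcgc
Pgk1: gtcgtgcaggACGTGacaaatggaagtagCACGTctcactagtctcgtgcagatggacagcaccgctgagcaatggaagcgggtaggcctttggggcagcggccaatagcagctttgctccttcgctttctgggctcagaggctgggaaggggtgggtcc
Slc2a1: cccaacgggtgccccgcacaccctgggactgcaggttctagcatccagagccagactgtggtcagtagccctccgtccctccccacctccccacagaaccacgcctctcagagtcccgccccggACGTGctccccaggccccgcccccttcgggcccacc
Pfkfb3: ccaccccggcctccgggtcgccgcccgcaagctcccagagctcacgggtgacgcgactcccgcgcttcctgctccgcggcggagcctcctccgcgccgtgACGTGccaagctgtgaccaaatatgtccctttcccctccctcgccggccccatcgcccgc
Bnip3: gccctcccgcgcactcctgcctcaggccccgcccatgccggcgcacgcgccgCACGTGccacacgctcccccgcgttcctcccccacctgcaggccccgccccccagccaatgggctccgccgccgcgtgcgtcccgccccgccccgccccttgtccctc
Hif1a: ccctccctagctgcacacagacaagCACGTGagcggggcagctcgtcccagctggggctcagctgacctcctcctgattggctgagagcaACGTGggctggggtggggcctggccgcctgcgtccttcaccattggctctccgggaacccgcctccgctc
Pgam1: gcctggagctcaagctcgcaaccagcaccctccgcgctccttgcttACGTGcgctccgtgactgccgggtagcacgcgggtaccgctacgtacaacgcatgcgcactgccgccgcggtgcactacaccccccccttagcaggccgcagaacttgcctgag
Pgam2: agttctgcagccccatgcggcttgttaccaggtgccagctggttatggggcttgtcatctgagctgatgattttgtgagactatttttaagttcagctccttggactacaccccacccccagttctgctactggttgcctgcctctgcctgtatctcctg
The lactate dehydrogenase gene Ldha held 5 matches in this stretch, counting both strands of its palindromes, Hif1a 3, Pgk1 and Bnip3 2 each, and Slc2a1, Pfkfb3 and Pgam1 1 each. Pgam2, the muscle isoform of phosphoglycerate mutase, held 0 in the printed stretch and neither core in its whole window. Hk1, Gpi1, Aldoa, Tpi1 and Pkm also held neither core at their outermost start. On the log2 scale the signal of Pgam2 ranged over 3.33 across the arrays, against 0.95 for Hk1, 0.35 for Aldoa, 0.29 for Tpi1 and 0.35 for Pkm. A link between the cores and this range was not tested.

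**Figure D1:**
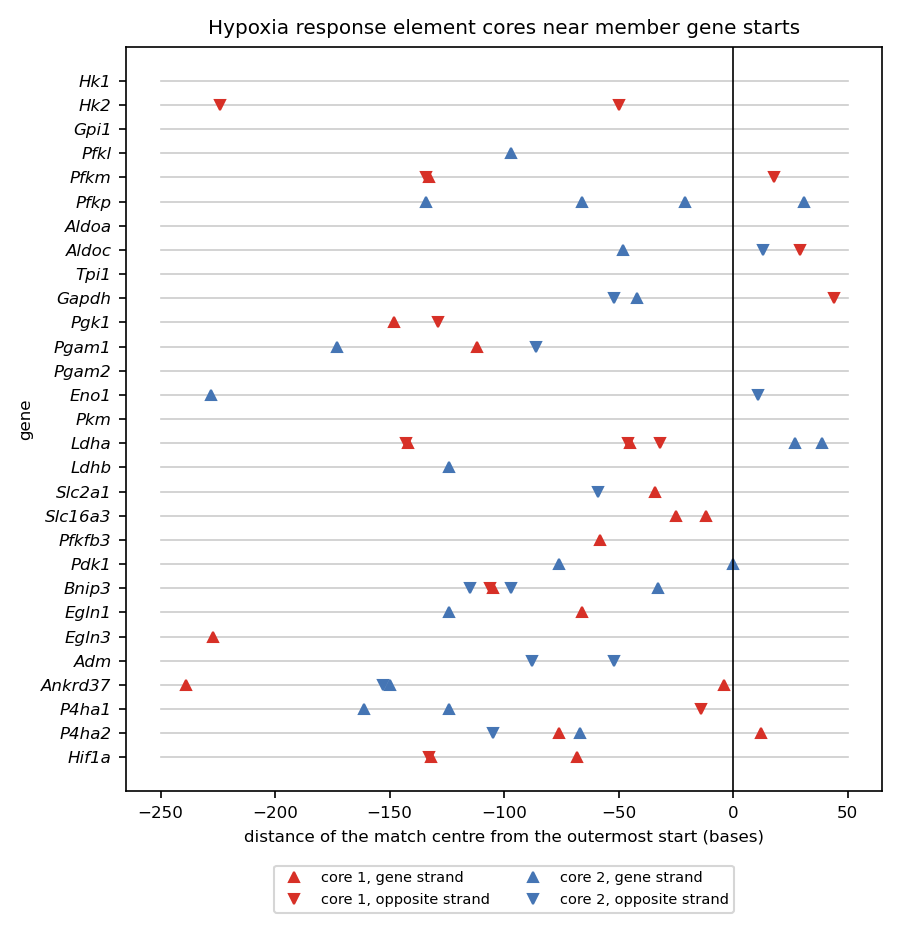
Positions of hypoxia response element cores around the outermost RefSeq start of 29 genes. The x axis is the distance in bases from the start to the centre of the match, core 1 is ACGTG and core 2 is GCGTG, and triangles point up for the gene's strand and down for the opposite strand. Ldha has 5 core 1 matches before its start, while 6 genes, Pgam2 among them, have no match.

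Values below are array signals on a linear scale, which the authors had scaled to a common mean per array. Differences are on the scale of log2(signal + 16.7) and are knockout minus heterozygous, with the standard error (SE) and 95% interval from limma, a linear model that shares the variance estimate across probe sets. All adjusted p-values are limma's, with Benjamini-Hochberg adjustment across the 27022 probe sets bright enough to test. Array medians ran from 78.1 to 103.6 in signal, and the brightest reading of 27 bacterial control probe sets, taken as background, was 22.9. Slc26a4 itself read between 2.10 and 15.7 on the 6 arrays, under background in both genotypes, so its probe set does not check the labels. Follicular markers were bright on every array (Tg, the hormone precursor, 12918 ± 768 in heterozygous and 12544 ± 708 in knockout samples, SD, n = 3). The summed signal of the 10 skeletal muscle markers ranged from 24654 to 44113 in heterozygous and from 8475 to 41492 in knockout samples, and that of 7 fat markers from 43520 to 53297 and from 41591 to 53848. Markers of the thymus and T cells were near background except on knockout 4, where their 9 genes summed to 4275, against 148.7 to 227.4 on the other arrays.

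No member differed between the genotypes by limma at an adjusted p of 0.05, and the markers Ldha, Pgk1 and Slc2a1 were far above background on every array. Of the 29 members tested, 0 were higher and 0 lower in knockout thyroid (smallest adjusted p = 1.0), and over all probe sets limma also called 0% in each direction. At an unadjusted p under 0.05 limma had 1 member, Pfkfb3 (3.45% of the 29, against 0.511% of all probe sets). A share made of 1 gene is imprecise. Over all probe sets limma had 138, but 915 with array weights, 934 without knockout 2 and 510 without knockout 6. The members counted were 2, 3 and 0 in the same order. A test of each probe set with its own unmoderated, unequal variances was used only as a count. By that test 0 members passed after adjustment and 1 had an unadjusted p under 0.05, as did 283 of the 27022 probe sets. The sign of the difference was above 0 for 20 members and below 0 for 9, where 49.3% of all probe sets lay above 0, and the median difference of the members was 0.06 against -0.0021 over all probe sets. The count and the median rested on heterozygous 3, without which 13 of 29 lay above 0 with a median of -0.036. A block that separates samples 1 to 3 from samples 4 to 6 gave 15 of 29 and a median of 0.011. For the 19 glycolysis and transport members alone the median was -0.0028. The block is not balanced over genotype, since samples 1 to 3 are mostly heterozygous and samples 4 to 6 mostly knockout. The 95% interval lay within a 1.5-fold change either way for 23 of the 29 members (79.3%, against 56.9% of all probe sets tested) and within 2-fold for 27. The exceptions to the wider limit were Pgam2 and the lactate carrier Slc16a3. Each member was read by its brightest probe set, while all probe sets tested include dimmer ones, so these shares are not matched for brightness. The mean of Aldoa, for example, was above that of 99.7% of the probe sets tested and that of Ldha above 98.6%, but that of Slc16a3 above only 10.4%.

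**Figure D2:**
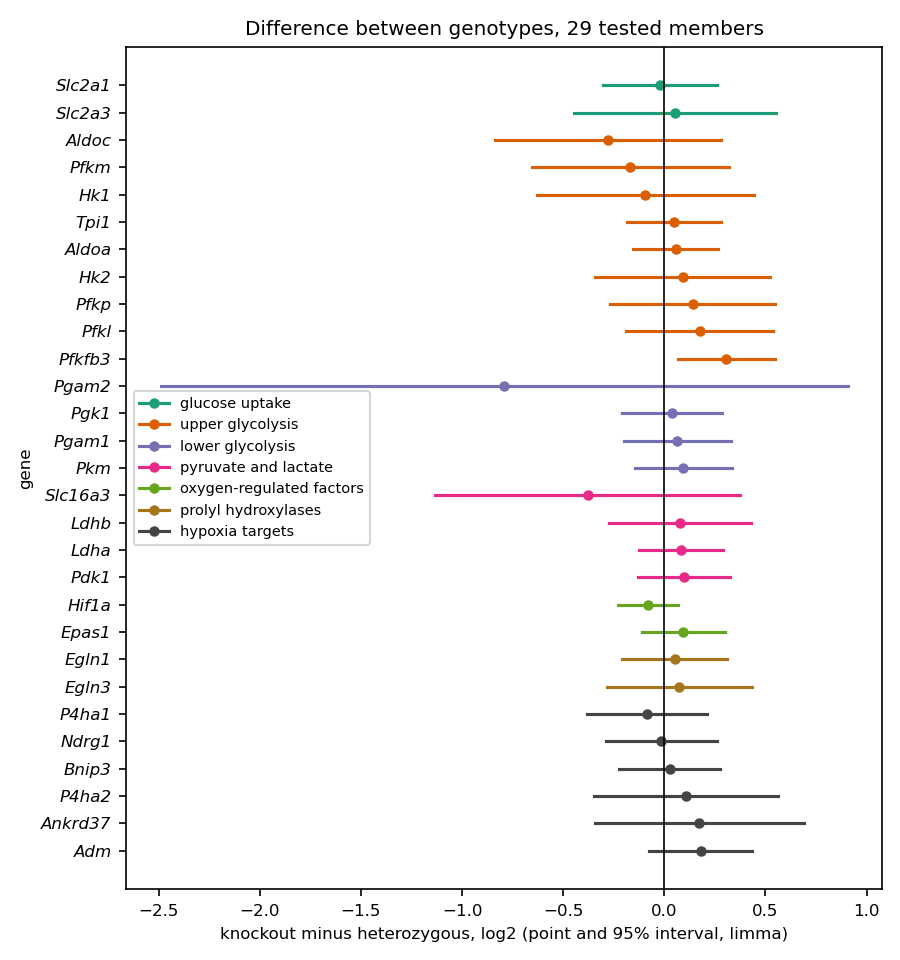
Difference between knockout and heterozygous thyroid for the 29 tested members, on the log2 scale (x axis), ordered by role (y axis). Points are limma estimates and lines their 95% intervals, 3 arrays against 3. All intervals except that of Pfkfb3 (0.07 to 0.55) include 0, and that of Pgam2 (-2.49 to 0.91) is the widest.

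Glucose enters the cell through facilitative carriers, of which Slc2a1 encodes GLUT1. Its signal was 5565, 4932 and 4155 on heterozygous 1, 3 and 5 and 5349, 4594 and 4438 on knockout 2, 4 and 6. The genotypes overlapped throughout, and within each genotype the array with the lowest sample number was the highest. The log2 difference was -0.02 ± 0.12 (SE, interval -0.31 to 0.26; limma, adjusted p = 1.0), and the other 2 probe sets of Slc2a1 gave -0.03 and -0.02. GLUT3, encoded by Slc2a3 and best known from neurons and white blood cells, read 170.0, 147.2 and 253.6 in heterozygous and 203.4, 194.4 and 182.4 in knockout samples, a difference of 0.05 ± 0.22 (SE). A dimmer probe set of Slc2a3 did not overlap between genotypes, at 141.0, 126.4 and 160.4 against 178.1, 174.8 and 172.2. Its difference of 0.27 ± 0.17 (SE, interval -0.12 to 0.66) did not pass either (limma, adjusted p = 1.0).

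In the upper part of glycolysis 6 of the 9 tested members had a difference above 0 and 3 below. Hexokinase traps glucose by phosphorylating it, and its isoforms showed no shared direction. Hk2, the isoform of muscle and fat, read 2620 ± 653 in heterozygous and 2741 ± 332 in knockout samples (SD, n = 3), and Hk1, the widely expressed isoform, 832.6 ± 101.7 and 806.1 ± 280.9. Hk1 was highest on knockout 2, at 1116, and lowest on knockout 6, at 568.6, so both ends of its range came from 1 genotype.

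Phosphofructokinase commits sugar to glycolysis, and 3 genes encode its subunits. The liver type Pfkl read 1655, 1285 and 1604 in heterozygous and 1400, 1981 and 1775 in knockout samples. Knockouts 4 and 6 lay above every heterozygous array while knockout 2 lay below 2 of them, and the difference was 0.17 ± 0.16 (SE, interval -0.19 to 0.54; limma, adjusted p = 1.0). The platelet type Pfkp read 1158 ± 184 and 1284 ± 245, with a difference of 0.14 (interval -0.27 to 0.55). The muscle type Pfkm lay the other way, at 1165 ± 318 and 1021 ± 193, with a difference of -0.17 (interval -0.66 to 0.32). A further probe set of Pfkl gave 0.16.

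Pfkfb3 had the smallest p of the members. It encodes a bifunctional enzyme that makes fructose 2,6-bisphosphate, the activator of phosphofructokinase, and it is a known target of HIF-1. Its signal was 1975, 2213 and 2197 in heterozygous and 2550, 2437 and 2931 in knockout samples. Every knockout array lay above every heterozygous array, which held for 1 of the 29 members and for 1.64% of all probe sets in this direction (2.04% in the other, 3.68% in either). The log2 difference was 0.31 ± 0.10 (SE, interval 0.07 to 0.55), which missed the threshold (limma, adjusted p = 1.0, unadjusted p = 0.0187). The difference stayed above 0 in each of the alternatives run, from 0.23 to 0.36, though the filters and variance settings cannot change it. Its unadjusted p by limma lay between 0.0178 and 0.110 and its adjusted p was at least 0.959. A dim probe set of the same gene had overlapping groups and a difference of 0.16 ± 0.24 (SE).

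Aldolase splits the sugar, and Tpi1 interconverts the resulting triose phosphates. The muscle and general isoform Aldoa read 9455 ± 1131 in heterozygous and 9783 ± 146 in knockout samples, with a difference of 0.06 (interval -0.15 to 0.27), and 3 of its other 4 probe sets, all bright, gave 0.04 to 0.05. A dimmer probe set of Aldoa gave -0.05. The brain isoform Aldoc read 207.0, 121.7 and 116.7 in heterozygous and 130.0, 106.5 and 111.3 in knockout samples. Heterozygous 1 stood apart and the other 5 arrays lay within 106.5 to 130.0. The difference was -0.28 ± 0.24 (SE, interval -0.84 to 0.28; limma, adjusted p = 1.0), and it was -0.038 without heterozygous 1. Tpi1 read 4953 ± 515 and 5113 ± 412, with 0.05, 0.05 and 0.02 from its 3 probe sets.

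The lower part of glycolysis yields ATP and pyruvate, and apart from Pgam2 its transcripts differed little between arrays. Phosphoglycerate kinase, Pgk1, read 6925, 5767 and 7421 in heterozygous and 6259, 7064 and 7253 in knockout samples. The groups overlapped, and heterozygous 3 was the lowest array. The difference was 0.04 ± 0.11 (SE, interval -0.21 to 0.29; limma, adjusted p = 1.0), and further probe sets of Pgk1 gave 0.08 and -0.09, the latter with heterozygous 5 apart at 4874 and the other arrays between 3184 and 3755. Gapdh, which oxidises glyceraldehyde 3-phosphate, was read only by control probe sets placed at its 3′ end, middle and 5′ end, which were left out of the test. The 3′ probe set read 9019, 7767 and 8602 against 8221, 8860 and 8252, the middle one 6534 ± 463 and 6622 ± 346, and the 5′ one 6073 ± 375 and 6077 ± 561. With the control probe sets kept in the fit the 3′ difference was -0.0013 (interval -0.18 to 0.18; limma, adjusted p = 1.0). Pyruvate kinase, Pkm, read 4911 ± 611 and 5224 ± 317, a difference of 0.09 (interval -0.14 to 0.33). The widely expressed mutase Pgam1 read 5585 ± 584 and 5848 ± 716, a difference of 0.06 (interval -0.20 to 0.33).

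Pgam2, the mutase isoform of muscle, was the exception. Its signal was 1782, 896.0 and 750.7 on heterozygous 1, 3 and 5 and 1957, 610.3 and 179.4 on knockout 2, 4 and 6, a range of 10.9-fold over the 6 arrays. Hif1a at the other end varied by 1.11-fold on its brightest probe set. Pgam2 was highest on knockout 2 and lowest on knockout 6, so the genotypes overlapped fully. The difference was -0.79 ± 0.74 (SE, interval -2.49 to 0.91; limma, adjusted p = 1.0). It was 0.043 without knockout 6 and -1.62 without knockout 2. Its log2 range over the arrays was wider than that of 99.7% of the probe sets tested.

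The skeletal muscle marker sum read 44113, 29879 and 24654 on heterozygous 1, 3 and 5 and 41492, 20510 and 8475 on knockout 2, 4 and 6. As with Pgam2, heterozygous 1 and knockout 2 were the 2 highest arrays and knockout 6 the lowest. The sum and Pgam2 were also higher on each of samples 1 to 3 than on any of samples 4 to 6. A pattern of muscle RNA and a split by sample number were therefore not separated in these values. All 10 markers had a lower mean log2 value in knockout samples (median -0.67), 0 of them passed, and none was under background on all arrays. The 4 of smallest p, all parts of the contractile apparatus, were Mylpf (-0.66), Tnnc2 (-0.59), Tnni2 (-1.09) and Tnnt3 (-0.68), each with an adjusted p of 1.0 by limma. Of the wider glycolytic genes, the muscle enolase Eno3 (3096, 1417 and 1378 against 2508, 1235 and 564.2) and the muscle glycogen phosphorylase Pygm (954.5, 551.5 and 531.9 against 1029, 376.3 and 232.0) had the same 2 highest arrays and the same lowest one. Both were chosen after their values were seen, and other genes of the same list did not share the pattern. Fbp2 read 413.6 on knockout 2 and 710.8 on knockout 6, and the glucose carrier Slc2a4 1583 and 2853. In bulk RNA, fewer cells of a type and less RNA per cell cannot be told apart, and the part of muscle RNA in the difference of Pgam2 was not tested.

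**Figure D3:**
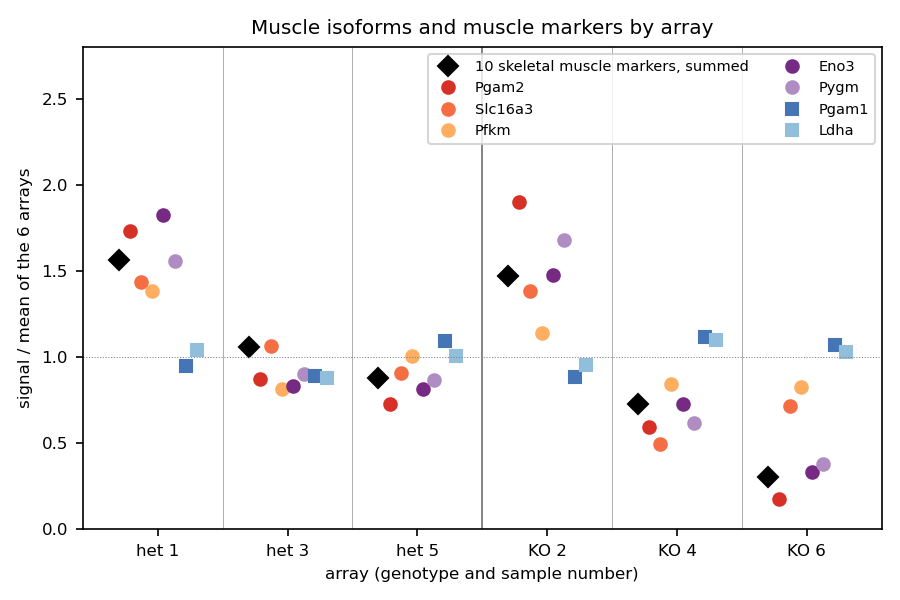
Signal of muscle isoforms (circles), the sum of 10 skeletal muscle markers (diamonds) and the widely expressed Pgam1 and Ldha (squares) on each array, divided by the mean of the 6 arrays (y axis), with arrays by genotype and sample number (x axis). Circles and diamonds are high on heterozygous 1 and knockout 2 and low on knockouts 4 and 6, while Pgam1 and Ldha stay close to 1. Slc16a3 was lowest on knockout 4 and Pfkm on heterozygous 3.

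Pyruvate is either reduced to lactate and exported or oxidised in mitochondria. Ldha, the subunit of lactate dehydrogenase that is induced by hypoxia, read 7386, 6226 and 7153 in heterozygous and 6804, 7807 and 7336 in knockout samples. The groups overlapped, with heterozygous 3 lowest and knockout 4 highest. The difference was 0.08 ± 0.09 (SE, interval -0.13 to 0.29; limma, adjusted p = 1.0). The heart type subunit Ldhb read 5900 ± 930 and 6238 ± 1047, a difference of 0.08 (interval -0.27 to 0.43), and its 3 other probe sets gave 0.10, 0.12 and -0.03. Pdk1, the kinase that inhibits pyruvate dehydrogenase, read 1519 ± 51.8 and 1628 ± 109, a difference of 0.10 (interval -0.13 to 0.32), while its other 3 probe sets gave 0.08, -0.11 and 0.18. Slc16a3, which encodes the lactate exporter MCT4 of glycolytic muscle, read 99.0, 73.5 and 62.8 in heterozygous and 95.6, 34.2 and 49.4 in knockout samples. Heterozygous 1 and knockout 2 were its highest arrays, as for the muscle markers, although its lowest was knockout 4. The difference was -0.38 ± 0.33 (SE, interval -1.13 to 0.37; limma, adjusted p = 1.0), and the part of muscle RNA in it was not tested. It moved to -0.13 without knockout 4 and to -0.70 without knockout 2.

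Of the oxygen-regulated factors, Hif1a, by its brightest probe set, varied least over the arrays of all members tested. It read 8254, 8220 and 7833 in heterozygous and 7564, 7960 and 7430 in knockout samples. Knockout 4 lay among the heterozygous arrays and the other 2 knockouts below them. The difference was -0.08 ± 0.06 (SE, interval -0.23 to 0.07; limma, adjusted p = 1.0), the narrowest interval of the members tested. Further probe sets of Hif1a gave -0.07 and -0.17, and the latter varied more over the arrays, by 1.58-fold (2826 to 4469). A dim probe set of Hif1a gave 0.25, with knockout 6 at 309.7 and heterozygous 3 at 187.6 against 68.4 to 91.5 on the others. Epas1, known from endothelium, read 6773, 6491 and 7837 in heterozygous and 7094, 7895 and 7464 in knockout samples, with overlapping groups and a difference of 0.09 ± 0.09 (SE, interval -0.11 to 0.30; limma, adjusted p = 1.0). A dim probe set of Epas1, also with overlapping groups, gave 0.34 ± 0.31 (SE, interval -0.38 to 1.06). The endothelial markers summed to 5679, 6419 and 6400 in heterozygous and 6495, 7152 and 5600 in knockout samples, and their part in the values of Epas1 was not tested. HIF activity is set largely by the stability of the proteins, which arrays do not measure.

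The prolyl hydroxylases that mark the HIF proteins for degradation are themselves HIF targets. Egln1 read 3960, 3207 and 3766 in heterozygous and 3492, 4232 and 3597 in knockout samples. The highest and second highest arrays belonged to different genotypes, and the difference was 0.05 ± 0.11 (SE, interval -0.21 to 0.31; limma, adjusted p = 1.0). A dimmer probe set of Egln1 gave 0.23 (interval -0.16 to 0.62). Egln3 read 379.9, 346.6 and 305.6 in heterozygous and 389.7, 380.6 and 318.2 in knockout samples. The groups overlapped over most of their range, and the difference was 0.07 ± 0.16 (SE, interval -0.28 to 0.43; limma, adjusted p = 1.0), with 0.10 from its other probe set.

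**Figure D4:**
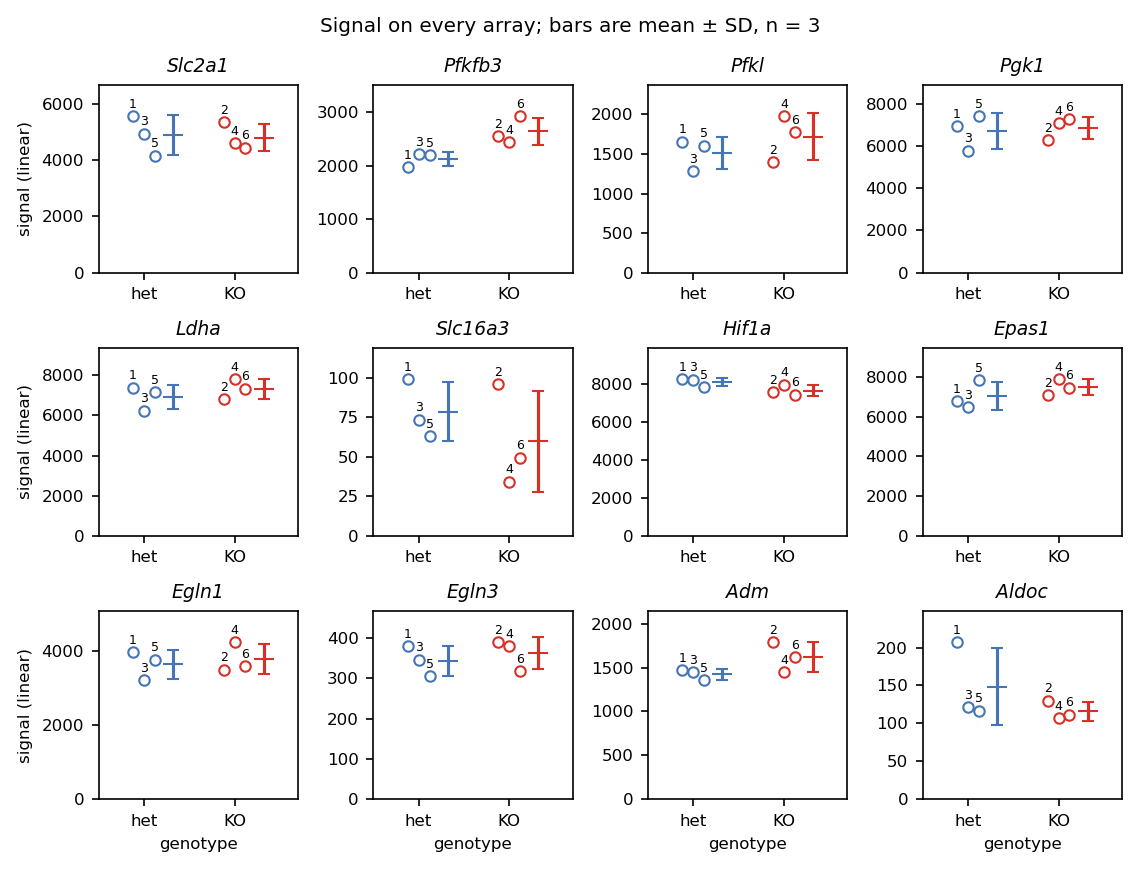
Signal on each array (y axis, linear, from 0) for 12 members by genotype (x axis), with sample numbers beside the circles and the mean ± SD of 3 arrays to their right. The groups overlap in every panel except that of Pfkfb3, where the heterozygous arrays lie between 1975 and 2213 and the knockout arrays between 2437 and 2931.

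Of the 6 further hypoxia targets, 4 had a difference above 0 and 2 below, and none passed. Adm, which encodes the vasodilator peptide adrenomedullin, had the smallest p among them. It read 1471, 1447 and 1357 in heterozygous and 1790, 1452 and 1623 in knockout samples, so that knockouts 2 and 6 lay above every heterozygous array and knockout 4 between them. The difference was 0.18 ± 0.11 (SE, interval -0.07 to 0.43; limma, unadjusted p = 0.141, adjusted p = 1.0), and a dimmer probe set of Adm gave 0.28 ± 0.18 (SE) with overlapping groups. Ankrd37, a nuclear ankyrin repeat protein, read 183.4 ± 31.4 and 211.1 ± 54.9, and its difference of 0.17 rested on knockout 6 at 273.5, without which it was -0.015. The mitophagy receptor Bnip3 read 5054 ± 613 and 5131 ± 394, a difference of 0.03 (interval -0.22 to 0.27). Ndrg1, a stress-induced gene, read 2036 ± 284 and 2003 ± 65.6, and its 5 probe sets gave differences from -0.09 to 0.10. The collagen prolyl hydroxylase subunits P4ha1 (620.7 ± 43.5 and 583.9 ± 50.4, difference -0.09) and P4ha2 (271.8 ± 46.6 and 294.5 ± 53.9, difference 0.11) lay on opposite sides of 0. A further probe set of P4ha1 gave -0.21.

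**Figure D5:**
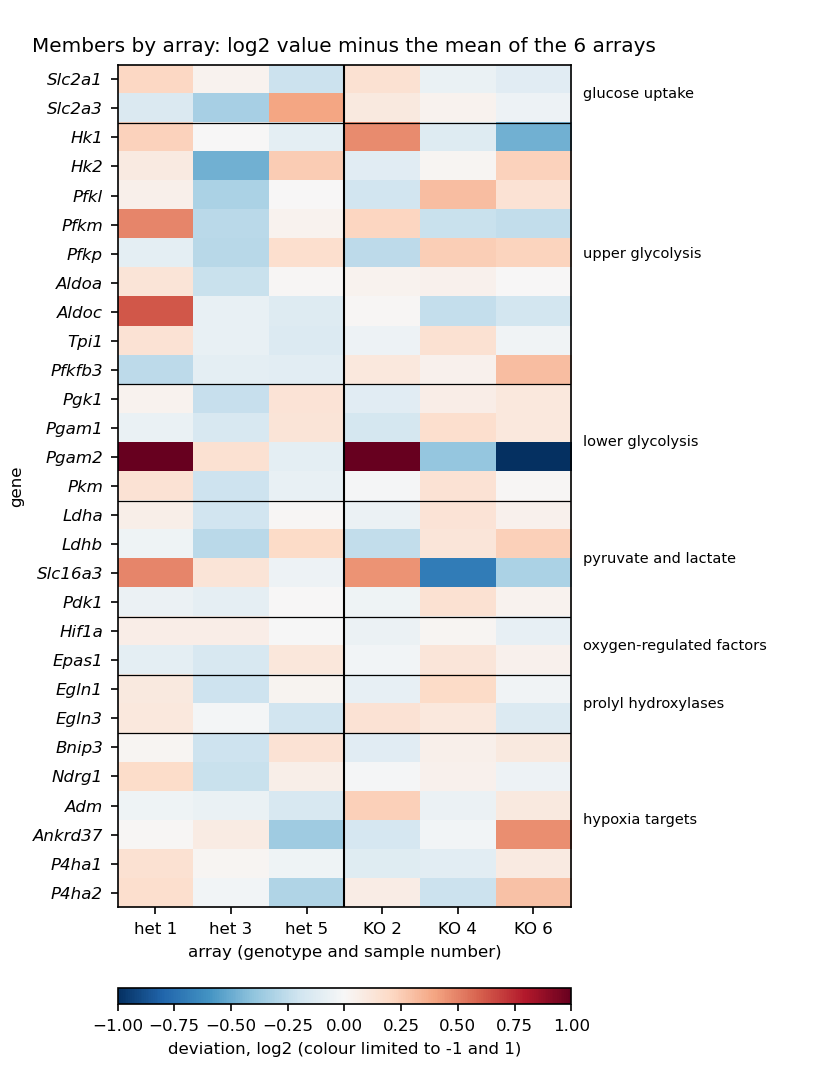
Log2 value of each tested member (rows, by role) on each array (columns, by genotype and sample number) minus its mean over the 6 arrays, in colour limited to -1 and 1. Pgam2 has the strongest colours, most other rows are pale, and heterozygous 3 is blue in many rows.

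Apart from genotype, the arrays differed in the level of the list as a whole. The median deviation of the 29 members from their own means was 0.09, -0.16 and 0.0030 on heterozygous 1, 3 and 5 and -0.03, 0.04 and 0.04 on knockout 2, 4 and 6, where the median over all probe sets lay between -0.02 and 0.04. Heterozygous 3 was thus the lowest array for the list while it was the highest, at 0.04, over all probe sets. The lowest array was heterozygous 3 for Hk2, Pfkl, Pfkp, Aldoa, Pgk1, Pkm, Ldha, Ldhb, Bnip3, Egln1, Ndrg1 and Epas1, among others. The share of all probe sets lowest on that array was not counted. The 7 fat markers had a median deviation of -0.22 there and -0.21 on knockout 2, and their part in these values was not tested. The median log2 range over the arrays was 0.40 for the members and 0.54 for all probe sets tested, which were not matched to the members for brightness.

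Several members and neighbours in the pathway were also alike in samples 1 to 3 and in samples 4 to 6 of either genotype. Pgam1 read 5036 to 5426 on samples 1 to 3 and 6121 to 6386 on samples 4 to 6. The lactate and pyruvate carrier Slc16a1 read 4394 to 4464 and 5735 to 6140 in the same order, and Angptl4, a lipase inhibitor induced by fasting and hypoxia, 655.7 to 808.8 and 1343 to 1669. Without overlap, samples 4 to 6 also lay above samples 1 to 3 for Pfkp, Pgk1, Ldhb, Pdk1, Bnip3 and Epas1. Slc2a1 lay the other way, at 4932 to 5565 and 4155 to 4594, as did Hk1, Aldoc, Pgam2 and Slc16a3. This grouping was made after the data were seen. The share of all probe sets that split by sample number was not counted, so the split cannot be called particular to these genes. The fat marker sum was 41591 to 47903 on samples 1 to 3 and 53297 to 53848 on samples 4 to 6. The skeletal muscle marker sum lay the other way, at 29879 to 44113 and 8475 to 24654, as did Eno3 and Pygm. The part of either sum in these values was not tested. The choice of Slc16a1 and Angptl4 was made with their values in view. The labels do not call the sample numbers a batch. Each set of numbers holds both genotypes, but samples 1 to 3 are mostly heterozygous and samples 4 to 6 mostly knockout. The split is thus partly confounded with genotype. A gene higher on samples 4 to 6 leans toward a difference above 0, and a gene lower there toward one below 0.

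Lists of other genes of the pathway also held 0 calls, as did the whole array of 27022 probe sets tested. Of all those probe sets 49.3% had a difference above 0, and 0.511% had an unadjusted p under 0.05 by limma. Of 40 other genes of glycolysis, pyruvate and glycogen metabolism, 31 were tested, 18 with a difference above 0 and 13 below (median 0.04), and 0 passed in either direction (limma, smallest adjusted p = 1.0; 0 at an unadjusted p under 0.05). Those of smallest p were the glycogen branching enzyme Gbe1 (2031 ± 185 and 2493 ± 538, difference 0.28), the pyruvate dehydrogenase phosphatase Pdp1 (-0.29), the mitochondrial pyruvate carrier subunit Mpc1 (0.12) and the glucose carrier Slc2a8 (0.26). Of 36 other genes of oxygen sensing and hypoxia response, 29 were tested, 10 with a difference above 0 and 19 below (median -0.03), and again 0 passed (limma, smallest adjusted p = 1.0; 0 at an unadjusted p under 0.05). They were led by the collagen lysyl hydroxylase Plod2 (690.8 ± 132.2 and 565.4 ± 67.8, difference -0.27), the GTPase Rab20 (-0.24), the nuclear receptor Rora (-0.14) and the lipid droplet protein Plin2 (0.14). The median of these hypoxia genes and that of the 10 hypoxia members (0.06) thus lay on opposite sides of 0, though the latter was -0.0022 without knockout 6 and -0.00052 without heterozygous 3. The median of the other glycolysis genes was -0.0056 without heterozygous 3. The angiogenic factor Vegfa read 3297 ± 525 and 3333 ± 571, and the HIF target Car9 was too dim to test, between 6.83 and 30.4. Both were picked by name, outside the rule.

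Other cell types in the dissected tissue differed between arrays as well. The genes of smallest p were, for the follicle, Pax8, Slc5a5, Tg and Nkx2-1 (differences from -0.14 to 0.22), for fat Elovl3 (0.80), Adipoq, Cox7a1 and Fabp4, and for red cells Alas2 (0.86) and Slc4a1. For thymus and T cells they were Cd3g, Dntt, Cd3d and Cd8a (0.16 to 1.63), each highest on knockout 4. Dntt, for example, read 1779 there and 6.09 to 24.5 on the other arrays. Cd3g, Dntt and Cd3d were bright enough to test only through knockout 4, being under a signal of 43.5 elsewhere. Their differences thus rest on 1 array. For macrophages they were Adgre1, C1qb, C1qa and C1qc (0.05 to 0.12), and for endothelium Tek, Kdr, Cldn5 and Pecam1 (-0.14 to 0.17). For cartilage they were Hapln1, Comp and Col9a1 (-0.13 to 0.05), for the parathyroid Pth (1.37, at 165.2 on heterozygous 1 and 2788 to 11058 on the others) and Casr, and for dividing cells Cdc20, Aurkb, Ccnb2 and Mki67 (0.53 to 0.57). None passed by limma (adjusted p = 1.0 for each).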

How the data were processed

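RNA from 6 mouse thyroid samples, 3 heterozygous and 3 knockout for Slc26a4, was measured on Affymetrix mouse arrays. Each deposited value is the intensity of 1 probe set on 1 array, on a linear scale, made by the authors with GCOS, per the submitters' processing notes, which name no version. On each array the mean after trimming 2% at each end was 500.002, so the authors' scaling was kept. No pair of arrays held identical values. Of 45101 probe sets, 34958 carried 1 gene symbol in the platform annotation, 932 several and 9211 none, and the 30 members' symbols were unchanged in RefSeq (GRCm38.p6). The sources name no genome build for the array.

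Signals were put on the scale log2(signal + 16.7), the constant being the 25th percentile of all values. The 64 control probe sets were left out, and the 27022 probe sets with a mean above the 40th percentile (a signal of 43.5) were fitted with limma 3.58.1 in R 4.3.3 (lmFit, eBayes with an intensity trend), with Benjamini-Hochberg adjustment at 0.05. The fit was tested on simulated data. The number of arrays limits the precision, and an exact permutation test of 3 against 3 cannot go below 0.1.

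The members and lists were chosen with earlier results of these data known, and lists are described by counts and medians. The rule for naming gave full values to Ldha, Pgk1, Slc2a1, Hif1a, Epas1, Egln1, Egln3, the 8 members of smallest p and any member without overlap, and named the 4 genes of smallest p of each other list. Promoter sequences are from RefSeq (GRCm38.p6). The alternatives were other normalizations, pseudocounts, filters and variance settings, array weights, a gene's mean over its probe sets, and each array left out. Another 2 were added after seeing the data, a block by sample number and the control probe sets kept.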

Additional observations from a re-analysis of the deposited data

How the results depend on the processing

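No paired analysis was possible because the groups share no sample number and the labels name no pairs. Across the alternatives run, 0 members and 0 probe sets of the whole array passed the threshold, and the adjusted p of a member was at least 0.959. The hypoxia members' median, 0.06, ranged from -0.0022 (without knockout 6) to 0.093 when 1 array was left out, that of all members from -0.036 to 0.096, and that of the glycolysis members from -0.036 to 0.11, the lowest both times without heterozygous 3. Of 174 single-gene differences with 1 array left out 144 kept their direction, and of 343 under the other settings 332 did. The filters, the variance settings and the kept control probe sets cannot change a difference. Directions under them were fixed in advance, so the count of 332 is no measure of stability. A block that separates samples 1 to 3 from samples 4 to 6 turned the sign for Hk1 (0.071), Hk2 (-0.024), Pfkp (-0.0028), Pgk1 (-0.033), Pgam1 (-0.029), Ldhb (-0.050), Slc2a1 (0.075), Slc2a3 (-0.034) and Bnip3 (-0.045), and array weights for Ndrg1 (0.0075) and P4ha2 (-0.099). The cause was not tested. With 1 array left out the differences ranged for Hk1 from -0.351 to 0.125, Hk2 -0.126 to 0.240, Pfkm -0.345 to 0.034, Aldoa -0.040 to 0.133, Tpi1 -0.017 to 0.131, Pgk1 -0.067 to 0.115, Pgam1 -0.0032 to 0.168, Pgam2 -1.62 to 0.043, Ldhb -0.036 to 0.219, Slc2a1 -0.132 to 0.078, Slc2a3 -0.098 to 0.263, Bnip3 -0.070 to 0.105, Egln1 -0.038 to 0.113, Egln3 -0.0054 to 0.161, Ndrg1 -0.127 to 0.074, Ankrd37 -0.015 to 0.303 and P4ha2 -0.016 to 0.240. No scaling moved the median of all probe sets by over 0.1. The filter at the 60th percentile and the mean of all probe sets left 27 and 26 members tested.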
